A study of Mus musculus with 6 samples.

Results

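Gamma crystallins and other proteins of the lens fibre cell were measured in retinas of newborn cyclin D1 -/- and wildtype mice. The 10 genes are the gamma crystallins Cryga, Crygb, Crygc, Crygd, Crygf and Crygs, the membrane proteins Mip and Lim2, and the beaded filament proteins Bfsp1 and Bfsp2. They were taken by name, as every probe set of the array annotated to 1 of these symbols alone. This gave 10 probe sets for 9 of the 10 genes, of 18193 genes named in all. Crygc had only a probe set that is also annotated to Crygb and was not measured on its own. All 9 were bright enough to be tested among 10916 genes.

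The knockout group held 3 numbered pools of retinas from cyclin D1 -/- newborns, in which both copies of Ccnd1 are disrupted, and the wildtype group held 3 numbered pools from wildtype newborns. Each pool was hybridised to 1 Affymetrix array. The labels name neither the strain nor the number of animals in a pool, and do not say whether litters were shared, so the tests measure the spread between these pools. The submitters asked how genes bound by cyclin D1 change when it is missing, and data on that binding were not analysed here.

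The lens is a body of elongated fibre cells that fill with crystallins while they lose their organelles. Gamma crystallins are small, tightly folded proteins that pack at high density in the fibre cell core, and in the mouse most of them are encoded in a cluster on chromosome 1. Mip, also called aquaporin 0, is the main membrane protein and water channel of the fibre cell, and Lim2 (MP20) is another integral membrane protein of these cells. Bfsp1 (filensin) and Bfsp2 (phakinin, CP49) assemble into the beaded filament, an intermediate filament of lens fibres. The labels name retina alone as the tissue. The lens is a separate tissue of the eye, in front of the retina.

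The 100 bases before the RefSeq start of each gene (GRCm38.p6) are shown for the chromosome 1 gamma crystallins among the members because the 4 of them that were measured had the largest differences of the 9 genes. Capitals mark the letters TATATA and TTTGTG. These were the longest runs of letters that a search found in all 5 windows.
Cryga, chr1:65103364-65103463, minus strand: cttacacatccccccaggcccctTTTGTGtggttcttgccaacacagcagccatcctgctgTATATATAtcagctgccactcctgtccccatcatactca
Crygb, chr1:65082291-65082390, minus strand: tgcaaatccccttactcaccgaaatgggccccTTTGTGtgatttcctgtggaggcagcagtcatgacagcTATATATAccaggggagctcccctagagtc
Crygc, chr1:65073533-65073632, minus strand: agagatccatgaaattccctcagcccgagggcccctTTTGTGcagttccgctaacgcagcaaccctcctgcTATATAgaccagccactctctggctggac
Crygd, chr1:65063441-65063540, minus strand: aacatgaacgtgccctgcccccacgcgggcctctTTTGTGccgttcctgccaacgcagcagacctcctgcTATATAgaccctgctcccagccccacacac
Crygf, chr1:65926422-65926521, plus strand: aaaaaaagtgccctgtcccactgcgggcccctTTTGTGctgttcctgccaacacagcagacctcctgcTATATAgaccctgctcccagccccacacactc
The windows of the other members hold neither run. For comparison, capitals mark the letters TATAAA in the window of Crygs, the gamma crystallin among the members outside the cluster, and no capitals fall in those of Mip and Lim2.
Crygs, chr16:22811411-22811510, minus strand: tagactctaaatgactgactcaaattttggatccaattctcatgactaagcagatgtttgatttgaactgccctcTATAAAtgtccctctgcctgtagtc
Mip, chr10:128225710-128225809, plus strand: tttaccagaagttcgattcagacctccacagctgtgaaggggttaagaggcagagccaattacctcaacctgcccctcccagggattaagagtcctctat
Lim2, chr7:43429999-43430098, plus strand: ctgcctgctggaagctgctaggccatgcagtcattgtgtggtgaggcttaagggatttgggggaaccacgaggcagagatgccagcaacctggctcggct
Read on both strands, TATATA was found in 2.19% of 32851 such windows of the RefSeq table, TTTGTG in 6.03% and TATAAA in 5.56%. The longer CTTTTGTG was found in the windows of Cryga, Crygc, Crygd and Crygf and in 0.46% of all windows. The exact letters TGCTGA, a form of the core of sites for Maf factors, were in no member's window and in 6.95% of all windows. The shorter CAGCA, which is TGCTG read on the other strand, was in all 5 cluster windows shown. It is also in the window of Lim2 and, read on the other strand as TGCTG, in that of Bfsp1. Its share of all windows was not counted. Only the exact letters TGCTGA were searched for, so whether these windows hold other forms of Maf sites was not tested. After global alignment, pairs of the 5 cluster windows were identical at 58.7% to 88.3% of alignment positions, with gaps counted as positions. Crygd and Crygf were the most alike. All other pairs of members were identical at 43.5% to 56.9%. In the RefSeq order of protein-coding genes, Crygd, Crygc, Crygb and Cryga follow each other with none between, and 4 lie between Cryga and Crygf. Cryge lies next to Crygd with none between, is not among the members, and its window was not examined. Probe sequences were not compared here. The Crygf probe set carries the suffix that Affymetrix gives to sets with probes that may match other sequences, so its value is uncertain by the part that such matches add.

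Ccnd1 checked the labels, at 8.86 ± 0.05 in knockout and 12.45 ± 0.10 in wildtype pools (log2 of normalised signal plus 16, mean ± SD, n = 3 each). Median deposited signal ran from 40.6 to 50.5 between arrays, and precision is limited by there being 3 arrays per genotype. Pools 1 and 2 of a genotype were more alike than any other pair, with an SD of the log2 difference over tested genes of 0.21 for the knockout and 0.22 for the wildtype pair, against 0.28 to 0.52. Wildtype pool 3 was less like wildtype pools 1 and 2 (SD 0.46 and 0.52) than knockout pool 3 was (SD 0.33 and 0.34). Hybridisation controls (BioB and BioC) were brighter on knockout pools 1 and 2 and wildtype pool 3 than on knockout pool 3 and wildtype pools 1 and 2. These sets are the upper and lower 3 arrays of a ranking, with no label behind them, and the step between them (0.153 on the log2 scale) was smaller than the largest step inside a set (0.178). Pool 3 of each genotype is alone of its genotype in its set, and results are also given within each. Beta-actin gave a 3' over 5' signal ratio of 1.49 to 2.04 in knockout and 1.70 to 2.22 in wildtype pools.

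All 5 gamma crystallins that were measured rose in knockout retinas, by 4.94-fold to 7.94-fold. The test was limma over all 10916 genes, with a Benjamini-Hochberg adjusted p under 0.1, the submitters' false discovery rate. Of all tested genes 2.03% were called higher and 2.63% lower. Levels below are log2 of the normalised signal plus 16, a scale that understates the change of dim genes, and differences are knockout minus wildtype. In bulk tissue, more lens cells and more of an RNA per cell cannot be told apart.

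Crygd stood at 11.14, 11.15 and 12.87 in knockout pools 1, 2 and 3, against 9.28, 9.46 and 7.46 in wildtype pools 1, 2 and 3. The knockout pools all lay above the wildtype pools, with pool 3 farthest out in each genotype. The difference was 2.99 (SE 0.61, 95% interval 1.57 to 4.41, limma adjusted p = 0.0457). Cryga stood at 11.23, 11.25 and 12.92 in the knockout pools, against 9.56, 9.74 and 8.35 in the wildtype pools, a difference of 2.58 (SE 0.51, limma adjusted p = 0.0373). Crygb stood at 10.88, 10.68 and 12.38 in the knockout pools, against 9.19, 9.21 and 7.39 in the wildtype pools, a difference of 2.72 (SE 0.58, limma adjusted p = 0.0522). Both have the order of pools seen for Crygd. Crygf, farther along chromosome 1, stood at 9.98, 10.19 and 11.86 in the knockout pools, against 8.49, 8.58 and 7.11 in the wildtype pools, a difference of 2.62 (SE 0.54, limma adjusted p = 0.0479).

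Crygs, which lies on chromosome 16 and is the gamma crystallin among the members outside the cluster, stood at 9.34, 9.45 and 10.68 in the knockout pools, against 7.84, 8.16 and 6.55 in the wildtype pools. Its difference of 2.31 (SE 0.47, limma adjusted p = 0.0445) was the smallest of the 5, and the intervals of the 5 genes overlap, 1.22 to 3.39 for Crygs and 1.57 to 4.41 for Crygd. Leaving out a pool left the direction of every gamma crystallin in place but not every size or call. Their differences were 1.82 to 2.35 without wildtype pool 3, where Crygb was at 2.11 and Crygd at 2.35, and 1.88 to 2.41 without knockout pool 3. Without knockout pool 1 or knockout pool 2 only Cryga of the 5 was called (limma adjusted p = 0.0975 and 0.0921), where 0.623% and 0.632% of all genes were called higher. Without knockout pool 3 Cryga and Crygf were called (limma adjusted p = 0.0634 and 0.0855), beside 1.17% of all genes. Without wildtype pool 1 the calls were Cryga, Crygb and Crygd (limma adjusted p = 0.0984, 0.0982 and 0.0985), beside 1.04% of all genes. Averaging pools 1 and 2 within each genotype left 2 samples per genotype, and then none of the 5 was called in limma (adjusted p = 0.192 to 0.213), with 0.156% of genes called higher.

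**Figure D1:**
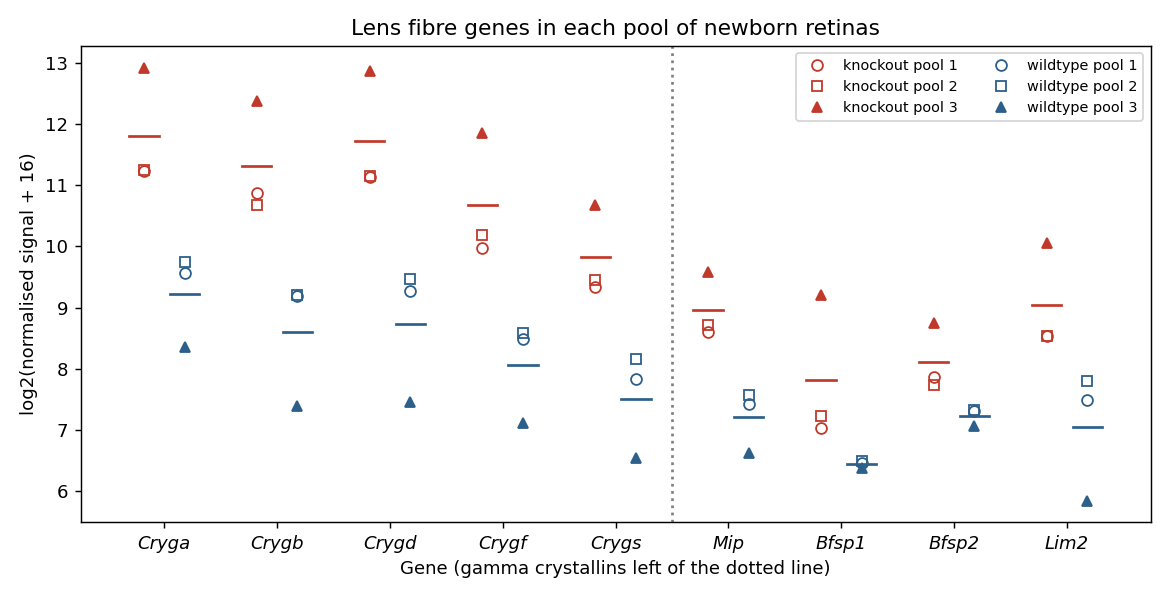
Levels of the 9 measured genes in each pool, as log2 of normalised signal plus 16, knockout pools left of wildtype pools for each gene, with bars at the group means of 3 pools. For every gene knockout pool 3 is highest and wildtype pool 3 lowest, and the groups do not overlap.

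Of the 4 lens fibre genes that are not crystallins, Mip rose and the other 3 did not pass the test, although all 3 had higher levels in every knockout pool. Mip, the aquaporin, stood at 8.60, 8.71 and 9.58 in knockout pools 1, 2 and 3, against 7.43, 7.58 and 6.62 in wildtype pools 1, 2 and 3. Its difference was 1.75 (SE 0.32, 95% interval 1.01 to 2.49, limma adjusted p = 0.0283), a 3.37-fold rise, and it kept its call without any 1 pool. A dimmer Mip probe set stood at 7.05, 7.06 and 8.0 in the knockout pools, against 6.24, 6.30 and 6.20 in the wildtype pools. In a fit with every probe set as its own feature (1.51% of 20967 called higher), the dimmer set differed by 1.12 (SE 0.25, limma adjusted p = 0.0640) and the brighter by 1.75 (SE 0.31, limma adjusted p = 0.0251). With pools 1 and 2 averaged, Mip was not called (limma adjusted p = 0.180).

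Lim2, the other membrane protein, stood at 8.53, 8.54 and 10.05 in the knockout pools, against 7.49, 7.80 and 5.85 in the wildtype pools. Wildtype pool 3 lay far below the other wildtype pools, and the SD was 0.87 in knockout and 1.05 in wildtype pools. The difference of 1.99 (SE 0.57, 95% interval 0.68 to 3.30) missed the threshold (limma adjusted p = 0.136) and passed it without wildtype pool 3, where it was 1.40 (limma adjusted p = 0.0799) and 7.90% of all genes were called higher. It also passed in the values as deposited, where 3.81% were called higher, and after centring each array on its median, where 1.43% were (limma adjusted p = 0.0589 and 0.0976).

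The beaded filament genes had nearly level wildtype pools. Bfsp1 stood at 7.03, 7.23 and 9.20 in the knockout pools, against 6.47, 6.49 and 6.39 in the wildtype pools. Knockout pool 3 alone stood far apart, which gave an SD of 1.20 in knockout and 0.05 in wildtype pools. The difference was 1.37 (SE 0.50, 95% interval 0.21 to 2.53, limma adjusted p = 0.268), and 0.68 without knockout pool 3 (limma adjusted p = 0.114). Bfsp2 stood at 7.86, 7.73 and 8.75 in the knockout pools, against 7.32, 7.33 and 7.06 in the wildtype pools. Its difference of 0.88 was the smallest of the 9 genes (SE 0.26, 95% interval 0.28 to 1.47, limma adjusted p = 0.148). It passed the test in the values as deposited (0.97, limma adjusted p = 0.0642), and without knockout pool 3 it was 0.56 (limma adjusted p = 0.181).

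**Figure D2:**
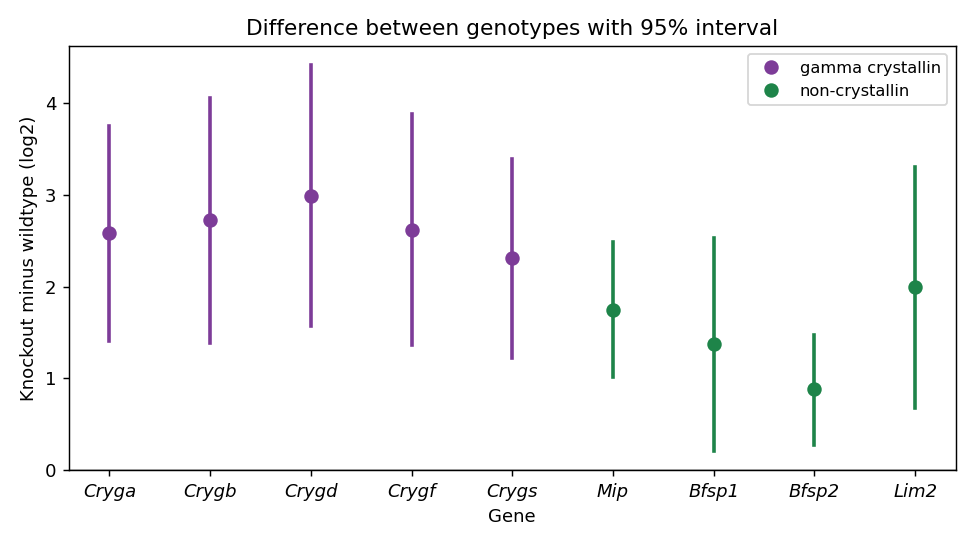
Knockout minus wildtype difference of each gene on the log2 scale with its 95% interval from limma, unadjusted for the number of genes, gamma crystallins left and the other lens fibre genes right. The gamma crystallins lie from 2.31 to 2.99 and the others from 0.88 to 1.99, and the intervals of these kinds of gene overlap for every pair of genes except Crygd and Bfsp2.

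The fitted differences of the 5 gamma crystallins all lay above those of the 4 other lens fibre genes. Their median was 2.62, and that of the others was 1.56, beside 0.02 over all tested genes. The smallest gamma crystallin difference lay above the largest of the others in the fit above and in each of 22 alternative settings, by 0.22 to 0.39 on the log2 scale. These settings use the same arrays. The intervals of Crygs and Lim2 overlap widely, and the difference between the kinds of gene was not tested, since the genes were chosen with results known. The gamma crystallin probe sets were also the brighter ones, with mean levels at the 90.2 to 98.7 percentile of named genes, against 62.1 to 82.1 for the others. A dim probe set holds a larger share of background signal, which narrows a fold, and the part this plays was not tested. With a pseudocount of 1 in place of 16 the medians were 2.70 and 1.69, and with 64 they were 2.48 and 1.27.

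Between single sets of pools the separation of the kinds did not always hold. Knockout pools 1 and 2 lay above wildtype pools 1 and 2 by 1.39 to 1.77 for gamma crystallins and by 0.47 to 1.15 for the others, with no overlap. Knockout pool 3 lay above knockout pools 1 and 2 by 1.29 to 1.77 for gamma crystallins and by 0.93 to 2.07 for the others, and the highest value was that of Bfsp1. Its deposited signal was 576 in knockout pool 3 and 117 and 145 in knockout pools 1 and 2, a ratio of 4.40 to their mean, where the gamma crystallins had ratios of 2.18 to 3.24. Wildtype pools 1 and 2 lay above wildtype pool 3 by 1.30 to 1.91 for gamma crystallins and by 0.09 to 1.80 for the others. Lim2 was at 1.80, inside the gamma crystallin range, and Bfsp1 and Bfsp2 were at 0.09 and 0.26. These values compare at most 3 arrays each and carry no test.

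**Figure D3:**
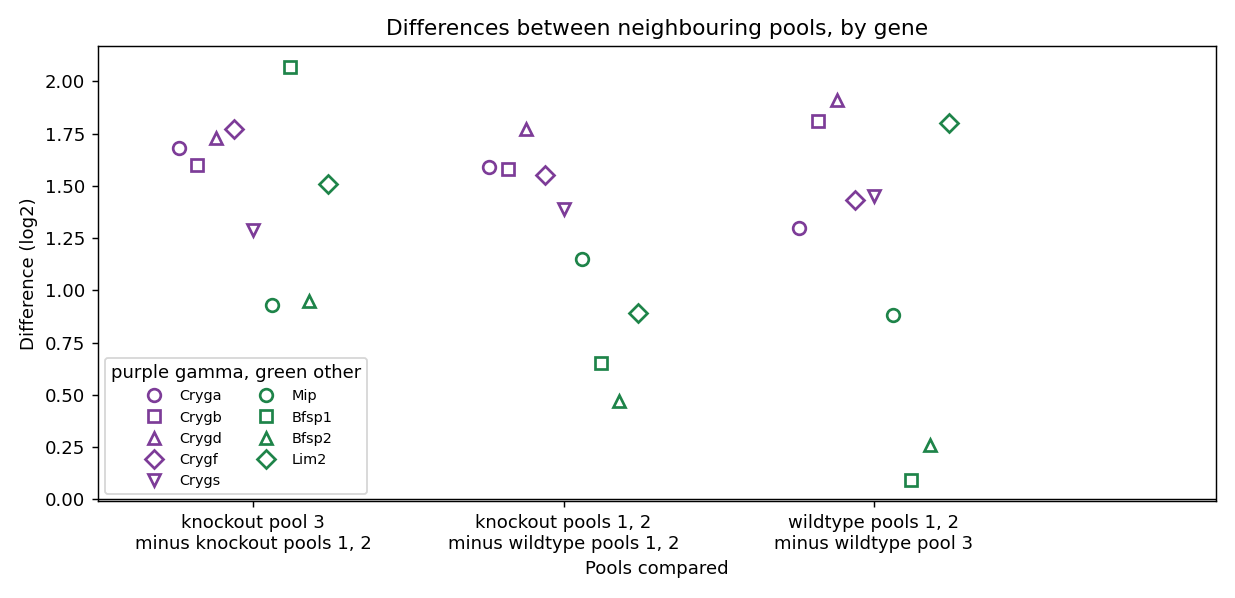
Differences between neighbouring pools on the log2 scale for the 9 genes, gamma crystallins in purple and the others in green, each with its own symbol. In the middle column the gamma crystallins (1.39 to 1.77) lie above the others (0.47 to 1.15), while in the left column Bfsp1 is highest at 2.07.

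Pools of the same genotype also lay apart. The 9 genes all had the same order, with knockout pool 3 highest, then knockout pools 1 and 2, then wildtype pools 1 and 2, and wildtype pool 3 lowest, an order found in 2.97% of all tested genes. Non-overlap of this direction was found in 10.5% of all tested genes and in all 9 of these. In deposited signal, Crygd was 7511 in knockout pool 3 and 154 in wildtype pool 3, a ratio of 48.8, and the other gamma crystallins had ratios of 19.7 to 36.8 between these pools. The ratio was 22.2 for Lim2, above the 19.7 of Crygs, and 8.75, 8.06 and 3.59 for Mip, Bfsp1 and Bfsp2. Within the set of arrays with brighter controls, where knockout pools 1 and 2 face wildtype pool 3, the gamma crystallins differed by 2.84 to 3.69 and the others by 0.74 to 2.69. Within the set with dimmer controls, where knockout pool 3 faces wildtype pools 1 and 2, they differed by 2.68 to 3.50 and by 1.42 to 2.72. With pool 3 of both genotypes left out, an alternative added after the data were seen, the medians were 1.58 for the gamma crystallins and 0.77 for the others. All 9 genes were then called, in a fit that rests on the 2 most alike pairs of arrays and calls 17.6% of all genes higher.

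Of 8 tested alpha and beta crystallins, the other structural proteins of the fibre cell, 7 rose and none fell, with a median difference of 2.39, led by Cryba1 (2.37, limma adjusted p = 0.0108), Cryba2 (2.38, limma adjusted p = 0.0191) and Cryab (2.74, limma adjusted p = 0.0194). With the mean of all its probe sets Cryab differed by 1.8 and kept its call (limma adjusted p = 0.0222). Without knockout pool 1, 2 or 3, 4 of the 8 were called each time, beside 0.623%, 0.632% and 1.17% of all genes called higher. With pools 1 and 2 averaged, 0 were called in limma and 8 were higher at an unadjusted p under 0.05, beside 3.44% of all genes. Their summed signal was 0.277% to 0.707% of all signal in knockout and 0.0374% to 0.103% in wildtype pools, beside 0.124% to 0.397% and 0.0124% to 0.0403% for the 5 gamma crystallins and 0.0161% to 0.0420% and 0.00501% to 0.00920% for Mip, Lim2, Bfsp1 and Bfsp2. None of 5 tested genes of a further list of lens fibre genes passed the test in limma, and 2 were higher at an unadjusted p under 0.05, beside 6.68% of all genes higher and 6.84% lower at that level (median 0.47). In this list Tdrd7, an RNA granule protein needed in the lens, had the pool order of the crystallins and groups that did not overlap, at 7.21, 7.05 and 8.42 in the knockout pools, against 6.91, 6.95 and 6.04 in the wildtype pools. Its difference of 0.93 was not called (limma adjusted p = 0.352). Tdrd7 was named for this pool order, which the 4 other tested genes lacked. Wildtype pool 3 was the highest wildtype pool for Caprin2 (6.46), Grifin (7.29) and Hspb1 (8.38), and Fabp5 differed by 0.03. The groups of Caprin2 did not overlap either, at 7.15, 7.26 and 7.17 in the knockout pools, against 6.21, 4.87 and 6.46 in the wildtype pools. Its difference of 1.34 was larger than that of Tdrd7 and was not called (limma adjusted p = 0.124). The list had 3 members called higher without wildtype pool 3, beside 7.90% of all genes, and 1 without wildtype pool 2, beside 1.10%.

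In the fit with no covariate, none of 16 tested regulators of lens development was called higher, beside 2.03% of all genes. None was higher at an unadjusted p under 0.05 in limma either, beside 6.68% of all genes. In a list of 16 genes a count of 0 is near these shares. At that unadjusted level 4 were lower, beside 6.84% of all genes. Of these regulators 2 fell, Meis2 (-0.85, limma adjusted p = 0.00571) and Sox2 (-0.56, limma adjusted p = 0.0108), factors also active in retinal progenitors. With the control set of arrays as a block, 1 was called higher and 2 lower, beside 5.47% of all genes called higher and 433 of 10916 lower. Maf, which activates crystallin genes, stood at 7.08 ± 0.33 in knockout and 6.75 ± 0.38 in wildtype pools (limma adjusted p = 0.697), Prox1 at 6.58 ± 0.15 and 6.92 ± 0.14 (limma adjusted p = 0.381), and Hsf4 at 6.26 ± 0.39 and 6.46 ± 0.11 (limma adjusted p = 0.841). The groups of Maf overlapped, with knockout pool 3 (7.44) highest and wildtype pool 3 (6.31) lowest. The lens factors Foxe3 and Sox1 were too dim to be tested. Without wildtype pool 3, 5 of the list were called lower, beside 1055 of all 10916 tested genes. With pools 1 and 2 averaged 0 were called lower, beside 26 of the 10916. In that fit 2 were lower at an unadjusted p under 0.05, beside 3.00% of all genes. Sox2 was not called in the values as deposited (-0.36, limma adjusted p = 0.147) or after centring each array on its median (-0.43, limma adjusted p = 0.23).

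Of 9 tested lens epithelium markers, 3 rose and none fell: Aldh1a1, an enzyme of retinoic acid synthesis (2.78, limma adjusted p = 0.000837), Igfbp7 (1.19, limma adjusted p = 0.0072) and Cp (1.28, limma adjusted p = 0.00793), all of which other ocular cells also make. Of these only Aldh1a1 was called with pools 1 and 2 averaged, and with the mean of all its probe sets Igfbp7 differed by 0.41 and was not called (limma adjusted p = 0.116). The summed signal of this list was 0.0781% to 0.0807% of all signal in knockout and 0.0256% to 0.0309% in wildtype pools. A sum weighs bright genes most, and Aldh1a1 was the brightest tested gene of this list, at a mean of 11.36 in knockout pools, with Cp next at 9.79. In this sum knockout pool 3 did not stand apart from knockout pools 1 and 2 as it did for the gamma crystallins. Of 8 ciliary body and margin genes, 3 rose (Col9a1, Ccnd2 and Wfdc1), with summed signals of 0.0701% to 0.0722% in knockout and 0.0258% to 0.0288% in wildtype pools. Wfdc1 was not called with pools 1 and 2 averaged (limma adjusted p = 0.162). The brightest tested gene in that sum was Col9a1, at a mean of 11.51 in knockout pools, with Ccnd2 next at 8.85. None of 7 tested cornea and surface ectoderm genes was called in limma, and 2 were higher at an unadjusted p under 0.05, beside 6.68% of all genes. Called higher were 2 without knockout pool 3, beside 1.17% of all genes, and 1 without wildtype pool 3, beside 7.90%. The summed signal of that list was highest in knockout pools 1 and 2, at 0.0217% and 0.0204%, with 0.0132% in knockout pool 3 and 0.0117% to 0.0122% in wildtype pools. Of 9 pigment epithelium genes, Pmel fell (-0.52, limma adjusted p = 0.0948), a call lost without any 1 pool other than wildtype pool 3 (limma adjusted p = 0.23 to 0.316). In the values as deposited the list had 1 gene called higher and 0 lower, beside 416 and 176 of 10916 genes. Rlbp1 of this list, a retinoid-binding protein that Müller glia also make, had the pool order of the crystallins, at 8.82, 8.73 and 9.5 in the knockout pools, against 8.19, 8.41 and 7.30 in the wildtype pools (difference 1.05, limma adjusted p = 0.148). No gene of the blood vessel list (4 tested) or the red blood cell list (1 tested) was called in limma. In each, 1 gene was lower at an unadjusted p under 0.05, beside 6.84% of all genes. Of 14 neural retina genes, 3 rose and 2 fell, beside 2.03% of all genes called higher and 2.63% lower. These counts became 6 and 2 in the values as deposited, beside 416 and 176 of all 10916 tested genes. They were 1 and 1 after averaging pools 1 and 2, beside 17 and 26. When the control set was a block they were 7 and 2, beside 597 and 433. The summed signal of the neural retina list was 0.168% to 0.179% in knockout and 0.128% to 0.152% in wildtype pools. None of the genes in these lists was at 0 on any array, and what part the other cell types have in the lens gene differences was not tested.

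**Figure D4:**
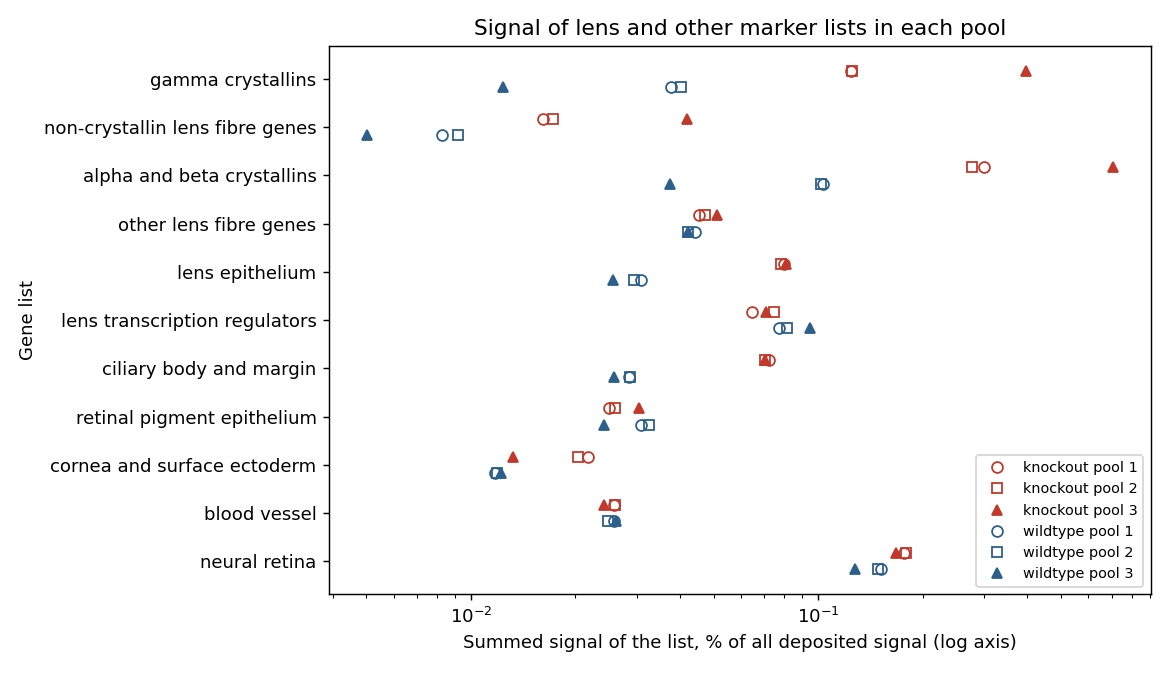
Summed deposited signal of each gene list as a percentage of all signal of the array, on a log axis, knockout pools above wildtype pools in each row. Gamma crystallins span 0.124% to 0.397% in knockout and 0.0124% to 0.0403% in wildtype pools, while the lens epithelium list spans only 0.0781% to 0.0807% and 0.0256% to 0.0309%. A sum weighs bright genes most, and Aldh1a1 was the brightest tested gene of the lens epithelium list.

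The genes whose pattern over the 6 arrays was most like the mean of the 9 members were sought among all tested genes. The 8 highest Pearson correlations, from 0.9926 to 0.9973, belonged to Cryaa, Galt, Tubb2a, Ebf3, Crybb3, Nck2, Ezr and Cryba2. They describe 6 arrays that share the split of pools given above. After the mean of each genotype was taken out, the correlations of these 8 were 0.975 to 1. The 8 were picked for likeness over the same arrays, so these values are no separate support. Only the crystallins among them moved on the scale of the members, with differences of 2.40 for Cryaa, 2.09 for Crybb3 and 2.38 for Cryba2 (limma adjusted p = 0.0283, 0.0429 and 0.0191). Crybb3 was not called without any 1 knockout pool (limma adjusted p = 0.11 to 0.118). Galt, an enzyme of galactose metabolism, the tubulin Tubb2a, the transcription factor Ebf3, the adaptor Nck2 and the membrane linker Ezr differed by 0.25 to 0.38 and were not called (limma adjusted p = 0.124 to 0.499), though Tubb2a was without wildtype pool 3 (limma adjusted p = 0.0934). Among the members themselves, Cryga, Crygb, Crygd, Crygf and Crygs correlated with the mean at 0.9947 to 0.9992 and Mip at 0.9948, Lim2 at 0.986, Bfsp2 at 0.966 and Bfsp1 lowest at 0.8968, and each is part of that mean.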

How the data were processed

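Per the labels' protocols, total RNA from pooled newborn retinas was column purified, amplified in 1 round, biotin labelled and put on Affymetrix arrays. The deposited table gives linear-scale intensity for each probe set on each array. The program that summarised probes, and any scaling, were not given in the sources used here. Of 45101 probe sets, 64 controls were left out, 34945 had 1 symbol in the platform annotation and were used, 932 had several and 9160 were unnamed. Symbols were updated through Entrez identifiers with RefSeq names (GRCm38.p6) for 34741.

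Array medians differed by more than 0.1 on the log2 scale, so values were quantile normalised, floored at 1 and taken to log2(value + 16). A gene was its brightest probe set, and the dimmest 40% (7277 genes, mean log2 level below 6.21) were not tested. The wildtype mean alone of all 9 members lay above 6.21. The fit was limma 3.58.1 in R 4.3.3 (lmFit, eBayes with an intensity trend), two-sided, with no covariate and Benjamini-Hochberg adjustment over all genes, checked on simulated data. The simulated noise was independent between arrays, so the check does not cover the likeness of pools 1 and 2. Sets of arrays came from ranking arrays by mean BioB and BioC signal. Windows were aligned with Biopython 1.88, and figures drawn with matplotlib 3.10.9. Members, lists and most alternatives were chosen with earlier results of these data known. The rule for named genes took the members, Ccnd1, the 8 genes most alike and up to 3 called genes per list. Tdrd7, the other genes of its list, Rlbp1, Maf, Prox1, Hsf4, Foxe3 and Sox1 fall outside this rule and were chosen once their values were known.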

Additional observations from a re-analysis of the deposited data

Results flagged for a closer look

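A probe set annotated to both Crygc and Crygb was left out of the comparisons because its signal cannot be given to either gene. It stood at 11.60, 11.72 and 13.54 in knockout pools 1, 2 and 3, against 9.98, 10.13 and 7.94 in wildtype pools 1, 2 and 3, a difference of 2.94 on the log2 scale. Signal in every knockout pool above the wildtype level, in data outside the main comparison, is what drew attention to it, and the difference was not tested. Another probe set, annotated to Cryga and D630023F18Rik, stood at 5.97 ± 0.14 in knockout and 5.79 ± 0.35 in wildtype pools (SD, n = 3 each), and its groups overlapped.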

How the results depend on the processing

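All 9 genes kept their direction in each of 22 alternatives. Over these, Cryga and Mip lost their call in 2, Crygd and Crygf in 5 and Crygb and Crygs in 6, while Lim2 gained one in 6, Bfsp2 in 4 and Bfsp1 in 3. Over all genes, 222 were higher and 287 lower, which became 416 and 176 in the values as deposited (median of all genes 0.13), 156 and 135 after centring arrays, 1857 and 1747 with array weights, 127 and 195 at a threshold of 0.05, 597 and 433 with the control set as a block, 17 and 26 with pools 1 and 2 averaged, and 1918 and 1803 with pools 1 and 2 only. Leaving out 1 pool gave 68 to 862 higher and 99 to 1055 lower, 1 to 5 gamma crystallins and 1 to 2 of the other lens fibre genes. The 1 other lens fibre gene called became 3 as deposited, 2 with centred arrays, 2 with each probe set on its own (Mip alone was called there, in both of its probe sets), and 4 with array weights, with the control set as a block and with pools 1 and 2 only. With pools 1 and 2 averaged, 0 gamma crystallins and 0 others were called in limma, and all 9 were higher at an unadjusted p under 0.05, beside 3.44% of all genes. The median gamma crystallin difference was 1.58 and the other 0.77 with pools 1 and 2 only. The cause of these changes was not tested. Deviations of same-numbered pools correlated at 0.173, -0.352 and -0.48, so the numbers were not taken as pairs. With the replicate block, 126 genes were higher and 143 lower, and 0 gamma crystallins and 0 others were called in limma (adjusted p = 0.143 to 0.364), with all 9 higher at an unadjusted p under 0.05, beside 5.38% of all genes.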
